A study of Rattus norvegicus with 18 samples.

Results

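Genes that write, remove or read methylation of lysine 9 of histone H3 (H3K9) were followed in cultured rat heart muscle cells treated briefly with a myosin II inhibitor. The set holds 34 of the 28909 genes of the deposited RNA table, picked by name from a list of H3K9 methyltransferases (9), demethylases (11), heterochromatin protein 1 (HP1) readers (3) and partners in silencing complexes (11). All 34 names were found. Gene names are given as in the table, where SUV39H1L1 is the row for Suv39h1. RNA came from neonatal rat ventricular cardiomyocytes (NRVCs) of wild-type (wt) Sprague-Dawley (SD) pups aged 1 day. After 90 min of preplating that removed quickly attaching cells, they were held for 24 h on collagen and then moved to medium with 0.25% serum. One group of 3 libraries received the solvent DMSO and the other group of 3 received blebbistatin, an inhibitor of the myosin II ATPase, both for 0.5 h. The treatment label states a dose of 25 µM, whereas the design text writes 0.25 μm. The other samples among the 18 of the series, 6 immunoprecipitations of H3K9me3 chromatin with their 6 inputs, were left out, so the results concern transcripts of the enzymes and readers and not the histone mark.

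H3K9 methylation marks silent chromatin. SUV39H1L1, SUV39H2 and SETDB1 can place trimethylation, the first pair mainly at pericentric repeats and the last at retroelements and single genes, while the EHMT1 and EHMT2 heterodimer places mono- and dimethylation. Jumonji demethylases and the flavin-dependent KDM1A remove it, and HP1 proteins bind it and compact the chromatin. In heart muscle this layer is known to accompany the silencing of cell cycle and fetal genes as cardiomyocytes mature, and the series title joins the cytoskeleton with cell cycle activity and histone modification.

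Levels are CPM, a gene's reads set to a fixed sum per library, which are not divided by gene length and so are compared between libraries but not between genes. Single libraries are given in deposited CPM, and group means after scaling between libraries. Depth was close to equal, at 59.6 to 63.3 M reads per library as read from the smallest step between values. On the first principal component, with 42.04% of the variance, DMSO replicate 1 lay far from the rest (-77.35 against -3.065 to 34.7), and the log2 fold change of each tested member is therefore also given without it. Set against the other 5 libraries, its mean log2 level differed by -0.71 for 30 ribosomal protein genes, -0.86 for 12 macrophage and leukocyte markers and -0.30 for 17 cardiomyocyte markers. The difference was -0.080 for 12 fibroblast markers, 0.011 for 26 proliferation genes and 1.28 for 4 red blood cell genes. It was 0.18 for 8 smooth muscle and pericyte markers and 0.17 for the 8 endothelial markers tested. Single genes of a list differed in both directions. Cardiomyocyte markers ran from -2.82 (NPPA) to 1.01 (RYR2), with MYL3 at -1.11 and MYH7 at 0.84. Macrophage and leukocyte markers ran from -2.41 (C1QC) to 0.16 (CSF1R), and smooth muscle and pericyte markers from -0.85 (CNN1) to 1.10 (PDGFRB). Cardiomyocyte markers were present in every library, with a summed level of 35244 to 37531 CPM over 17 genes. Fibroblast markers, collagens included, summed to 40288 to 47022 CPM over 12 genes, 8 smooth muscle and pericyte markers to 6493 to 7587 CPM and 9 endothelial markers to 163 to 231 CPM. In such bulk RNA, fewer cells of a type and less RNA per cell cannot be told apart. The levels of the members likewise cannot be assigned to cardiomyocytes or to the other cells. The cause of the differences in DMSO replicate 1, between lists and within them, was not tested. Nothing in the labels ties the replicates to different cell isolations, and the p-values thus reflect the scatter of these 6 libraries, which may be technical.

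No member of the set passed the test after 0.5 h of blebbistatin. Of the 34 genes, 33 were high enough to test, and limma (Benjamini-Hochberg adjusted p under 0.05 over 15204 genes) called 0 higher and 0 lower, against 3 genes or 0.0197% of all genes tested. At an unadjusted p under 0.05 the count was again 0 of 33, where 1.51% of all genes fell under it. After scaling, in no member did the libraries of one group all lie on one side of the other group's, an arrangement found for 6.12% of all genes. The lowest adjusted p of a member was 0.990, a value that all named members below share or exceed. A p that misses the threshold does not show equal levels, and the 95% intervals of the log2 fold change say how large a difference these libraries leave room for. For 31 of 33 members the interval lay within -1 to 1 on the log2 scale, and for 17 within -0.5 to 0.5. KDM7A and HELLS were the members with intervals that reached beyond -1 or 1.

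More members had negative than positive values, and this depended on DMSO replicate 1. With all 6 libraries 24 log2 fold changes were negative and 9 positive, with a median of -0.10, beside 0.00074 over all genes tested. Without DMSO replicate 1 there were 14 negative and 19 positive values with a median of 0.020, and 14 members changed sign. The median size of the values was then 0.051 instead of 0.12, and 26 of 33 intervals lay within -0.5 to 0.5. Limma then again called 0 members, where 0.0395% of all genes passed, and 0 were under an unadjusted p of 0.05, where 1.59% of all genes were. DMSO replicate 1 was the highest of the 6 libraries for 18 members (54.5%) and the lowest for 3 (9.09%), while over all genes tested it was the highest for 34.4% and the lowest for 33.7%. Related lists tilted the same way. It was the highest for 61.8% and the lowest for 27.3% of 55 other heterochromatin genes. For 36 enzymes of other histone methylation sites the shares were 63.9% and 22.2%. The part of the ribosomal and cell marker differences listed above in these levels was not tested.

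**Figure D1:**
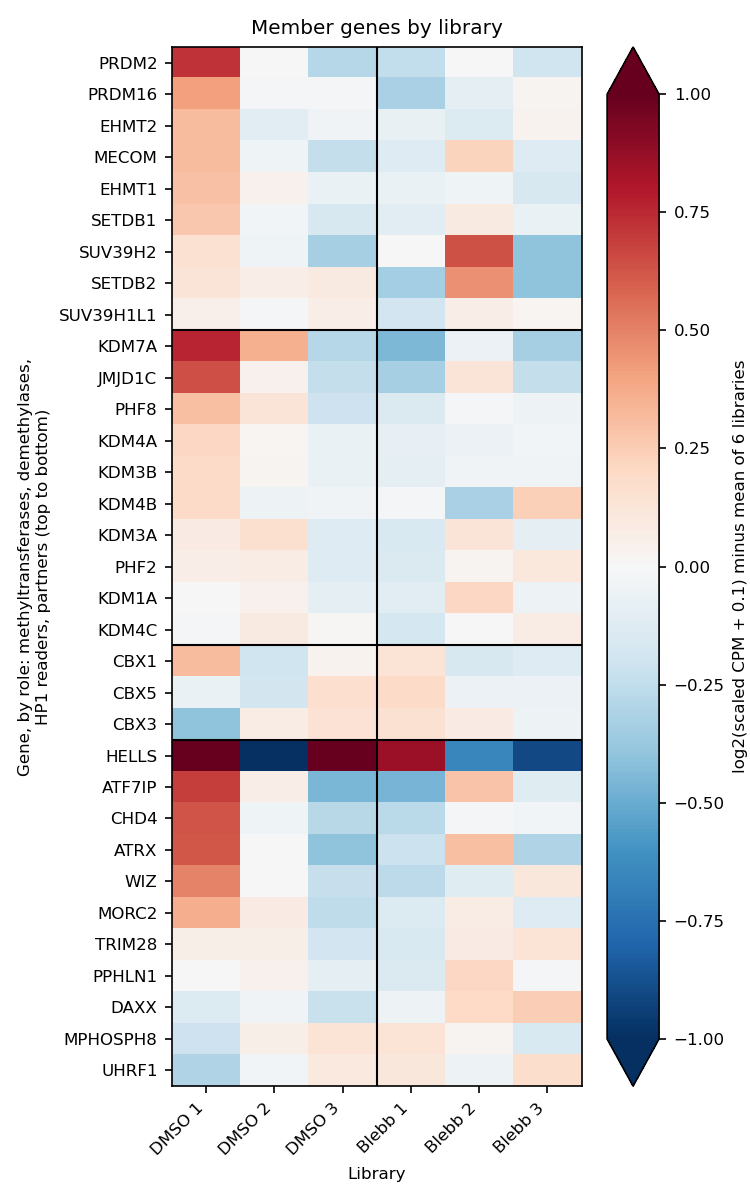
Each tile shows, for 33 members in rows grouped by role and 6 libraries in columns, log2(scaled CPM + 0.1) minus the member's mean over the libraries, with colours ending at -1 and 1. The column of DMSO replicate 1 is mostly red, CBX3, UHRF1 and MPHOSPH8 have their lowest value in it, and HELLS swings beyond the colour scale.

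**Figure D2:**
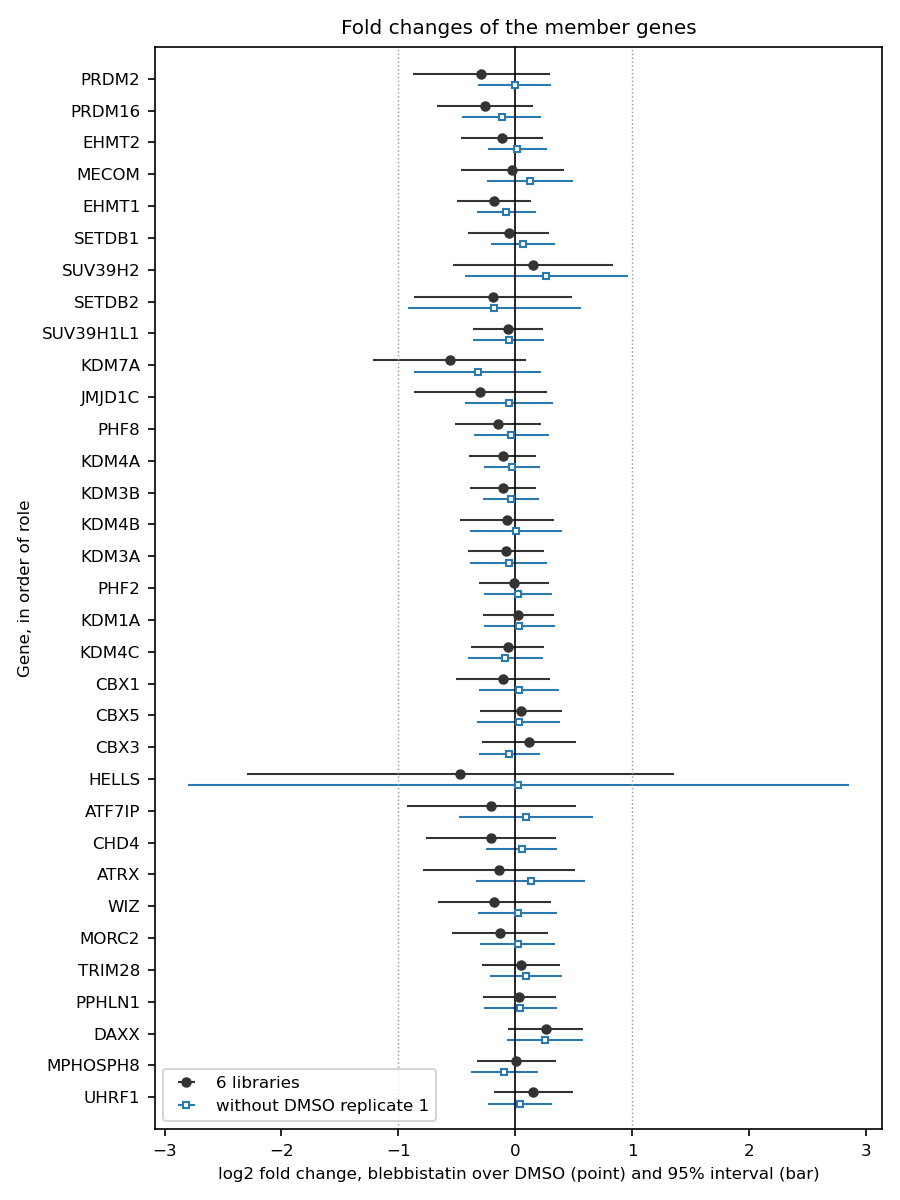
Points are log2 fold changes of blebbistatin over DMSO for 33 members, with 95% intervals as bars, from 6 libraries (filled circles) and without DMSO replicate 1 (open squares). All intervals include 0, and those of HELLS are the widest.

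Among the methyltransferases 8 of 9 log2 fold changes were negative and 1 was positive (median -0.11), and 0 passed the test. SUV39H1L1 was at 26.9, 28.00 and 30.2 CPM with DMSO and 25.4, 29.5 and 28.98 CPM with blebbistatin, each given in the order of replicates 1, 2 and 3. These 6 values lay within a factor of 1.196 of each other after scaling and the groups overlapped, with a log2 fold change of -0.064 ± 0.13 (SE) and a 95% interval of -0.36 to 0.24. Without DMSO replicate 1 it was -0.055. Its relative SUV39H2, a low transcript here, was at 6.08, 5.82 and 4.79 CPM with DMSO and 6.08, 9.26 and 4.52 CPM with blebbistatin. Blebbistatin replicate 2 was the highest library for SUV39H2 and blebbistatin replicate 3 the lowest, so the treated libraries enclosed all controls (0.15 ± 0.29, interval -0.53 to 0.83). Its log2 fold change was 0.26 without DMSO replicate 1 and -0.13 without blebbistatin replicate 2. The ratio of SUV39H2 to SUV39H1L1 ran from 0.156 in blebbistatin replicate 3 to 0.314 in blebbistatin replicate 2.

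SETDB1, the enzyme that TRIM28 brings to retroelements, was at 68.7, 61.2 and 56.6 CPM with DMSO and 58.7, 65.9 and 59.8 CPM with blebbistatin. DMSO replicate 1 was the highest and DMSO replicate 3 the lowest of its 6 libraries, again with the treated values in between (-0.056 ± 0.15 with all libraries and 0.066 without DMSO replicate 1). The related SETDB2 stayed between 1.80 and 3.31 CPM, and both ends of that range were treated libraries (-0.19 ± 0.29, and -0.18 without DMSO replicate 1).

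EHMT1 and EHMT2 encode the partners of the main dimethylating complex. Levels of EHMT1 were 86.96, 80.1 and 75.04 CPM with DMSO and 75.6, 74.8 and 69.7 CPM with blebbistatin, and those of EHMT2 were 143, 116 and 124 CPM with DMSO and 121, 113 and 129 CPM with blebbistatin. For EHMT1 the controls ranked mostly above the treated libraries, and DMSO replicate 3 lay among the treated libraries after scaling. Its log2 fold change was -0.18 ± 0.13 (interval -0.49 to 0.14, limma adjusted p = 0.990), and -0.076 without DMSO replicate 1. The value for EHMT2 was -0.11 ± 0.15, which became 0.017 without that library. The ratio of EHMT1 to EHMT2 lay between 0.539 and 0.691 over the 6 libraries.

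The remaining methyltransferase genes encode PR domain zinc finger proteins. PRDM2 was at 107, 70.7 and 58.9 CPM with DMSO and 60.8, 70.2 and 62.00 CPM with blebbistatin, so that DMSO replicate 1 stood well above 5 libraries that lay within a factor of 1.22 after scaling. Its log2 fold change of -0.29 ± 0.25 moved to -0.0028 without that library. PRDM16, a transcription factor active in the developing ventricle, was at 27.1, 22.1 and 22.5 CPM with DMSO and 18.1, 20.7 and 22.9 CPM with blebbistatin (-0.26 ± 0.17, limma unadjusted p = 0.181 and adjusted p = 0.990; -0.12 without DMSO replicate 1). Its controls lay above 2 of the treated libraries, and blebbistatin replicate 3 overlapped with them. MECOM ranged from 19.2 to 25.7 CPM, and after scaling DMSO replicate 1 was its highest library (-0.024 ± 0.19, and 0.13 without DMSO replicate 1).

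**Figure D3:**
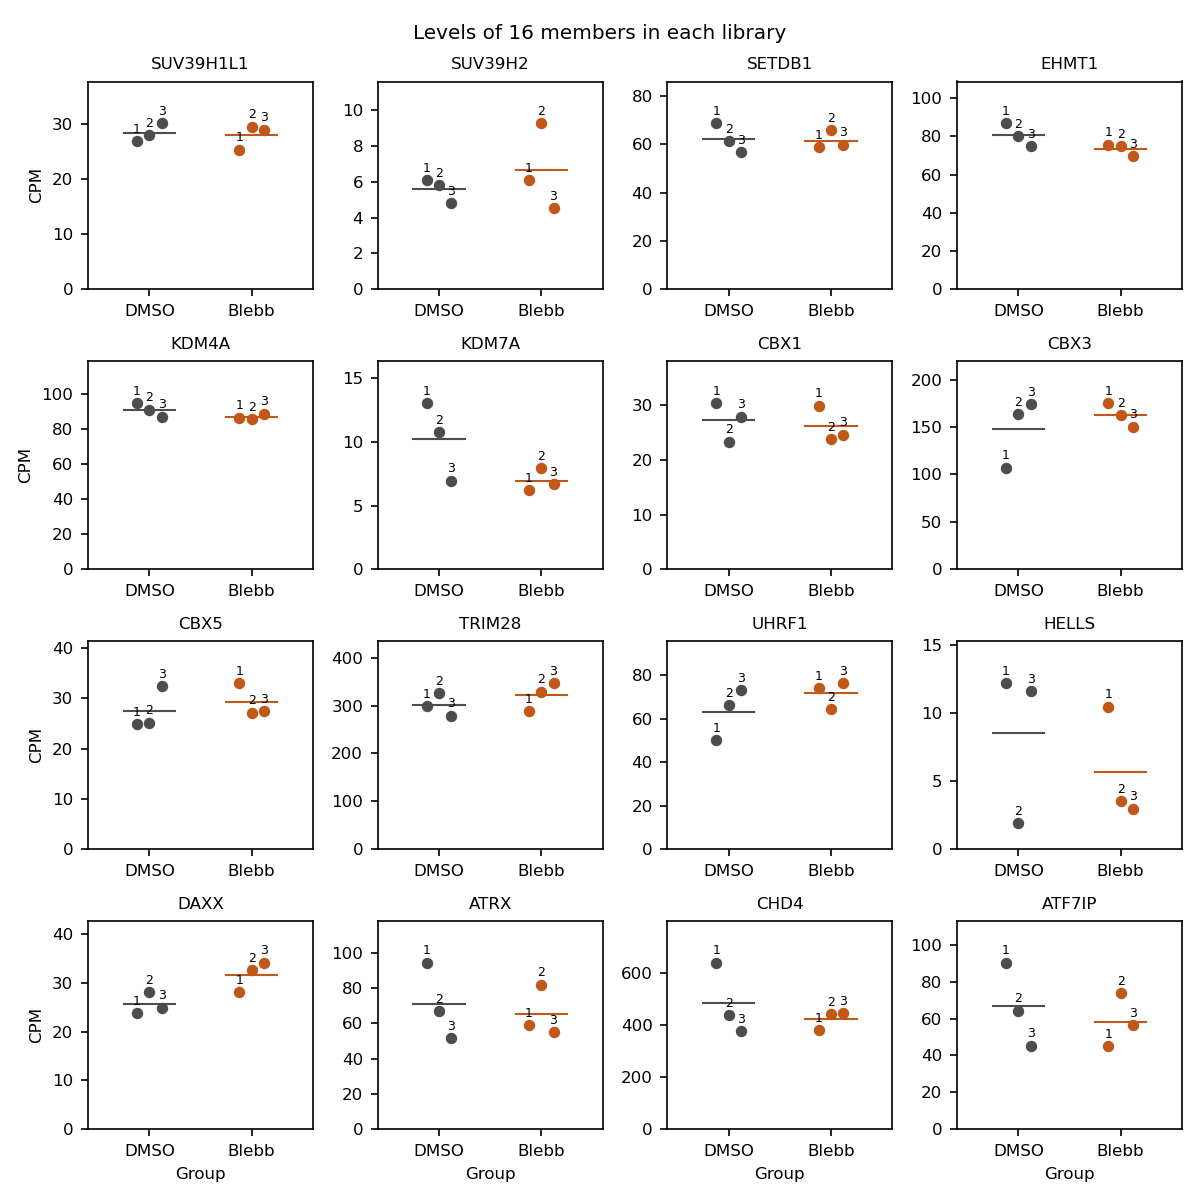
CPM as deposited in each library for 16 members, with points numbered by replicate, lines at group means and every axis starting at 0. HELLS splits into a high and a low level inside both groups, and the groups overlap in every panel but that of DAXX, where 28.12 and 28.17 nearly meet.

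Among the demethylases tested 9 of 10 values were negative and 1 was positive (median -0.092), and 0 passed. KDM7A, a PHD and Jumonji domain enzyme that acts on mono- and dimethylated H3K9 and on H3K27, had the lowest p of the whole set. It was at 13.04, 10.8 and 6.95 CPM with DMSO and 6.19, 7.95 and 6.65 CPM with blebbistatin, or 10.5 ± 3.68 CPM with DMSO and 6.84 ± 0.993 CPM with blebbistatin after scaling (SD, n = 3 each). DMSO replicates 1 and 2 lay above all treated libraries, and DMSO replicate 3 lay among them. The log2 fold change was -0.56 ± 0.28 (interval -1.22 to 0.096, limma unadjusted p = 0.0838 and adjusted p = 0.990). The value was -0.32 without DMSO replicate 1 and -0.84 without DMSO replicate 3. The lowest limma adjusted p under any alternative, 0.594, came without DMSO replicate 3. In that setting EHMT1, PRDM2, JMJD1C, PHF8, ATF7IP, MORC2, WIZ and CHD4 shared it, so it does not single out KDM7A. On the log2 scale DMSO replicate 1 lay 0.92 above the average of the rest. PHF8 and PHF2, enzymes of the same family, had log2 fold changes of -0.15 ± 0.16 and -0.011 ± 0.13, or -0.032 and 0.021 without DMSO replicate 1. Without DMSO replicate 3 that of PHF8 was -0.29. PHF8 was at 34.3, 33.3 and 26.7 CPM with DMSO and 28.1, 29.7 and 29.5 CPM with blebbistatin, and PHF2 ran from 77.4 to 91.02 CPM, with both ends in treated libraries.

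The Kdm4 enzymes remove trimethylation. KDM4A was at 94.99, 91.1 and 87.1 CPM with DMSO and 86.7, 85.8 and 88.9 CPM with blebbistatin. Without DMSO replicate 1 its scaled values lay within a factor of 1.07, and its log2 fold change was -0.11 ± 0.12 (interval -0.39 to 0.18) with all libraries and -0.028 without DMSO replicate 1. KDM4B spanned 28.3 to 42.6 CPM, both ends being treated libraries (-0.072 ± 0.17, and 0.0056 without DMSO replicate 1), and KDM4C spanned 17.8 to 21.01 CPM (-0.063 ± 0.13, and -0.084 without DMSO replicate 1). KDM4D was too low to test. It was listed at 0 in DMSO replicate 3 and in all 3 treated libraries, while 0.0661 and 0.0335 CPM in DMSO replicates 1 and 2 correspond to 4 and 2 reads. A count of 0 leaves room for up to 3 reads, or 0.0474 to 0.0503 CPM at these depths (counting error only), so no difference can be read from it.

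KDM3A, KDM3B and JMJD1C form the subfamily that removes mono- and dimethylation. KDM3A, which is known as a hypoxia-responsive gene, lay between 40.8 and 50.1 CPM (-0.078 ± 0.14, and -0.055 without DMSO replicate 1). KDM3B lay between 105 and 114 CPM (-0.11 ± 0.12, and -0.035 without DMSO replicate 1), and its scaled values stayed within a factor of 1.08 without DMSO replicate 1. JMJD1C was at 160.1, 116 and 96.1 CPM with DMSO and 90.6, 121 and 95.3 CPM with blebbistatin, with DMSO replicate 1 the highest and the other 2 controls inside the range of the treated libraries. Its log2 fold change moved from -0.30 ± 0.24 to -0.051 without that library. KDM1A, also called LSD1, had between 69.5 CPM and 86.7 CPM (0.028 ± 0.13, and 0.037 without DMSO replicate 1).

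The HP1 genes did not move together between libraries. CBX3 (HP1 gamma) was at 107, 163 and 174 CPM with DMSO and 175, 162 and 150.5 CPM with blebbistatin, with DMSO replicate 1 well below the other 5 libraries, which lay within a factor of 1.15 after scaling. Its log2 fold change was 0.12 ± 0.17 with all libraries and -0.049 without DMSO replicate 1. CBX1 (HP1 beta) was at 30.4, 23.4 and 27.9 CPM with DMSO and 29.9, 23.8 and 24.6 CPM with blebbistatin, with DMSO replicate 1 and blebbistatin replicate 1 the highest (-0.10 ± 0.17, and 0.030 without DMSO replicate 1). CBX5 (HP1 alpha) was at 24.9, 25.2 and 32.5 CPM with DMSO and 33.1, 27.1 and 27.5 CPM with blebbistatin, high in DMSO replicate 3 and blebbistatin replicate 1 and at similar levels in the other 4 (0.050 ± 0.15, and 0.030 without DMSO replicate 1). The ratio of CBX1 to CBX3 was 0.284 in DMSO replicate 1 and 0.143 to 0.171 in the other libraries. The 95% intervals of the treatment difference were -0.50 to 0.30 for CBX1, -0.28 to 0.52 for CBX3 and -0.30 to 0.40 for CBX5.

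Partners and silencing complexes had 6 negative and 5 positive values (median -0.13), and 0 of 11 passed. TRIM28, the corepressor that links KRAB zinc finger proteins to SETDB1, was at 299, 327 and 279 CPM with DMSO and 288, 329.5 and 348 CPM with blebbistatin (0.049 ± 0.14, interval -0.28 to 0.38, and 0.091 without DMSO replicate 1). Its lowest library was DMSO replicate 3 and its highest blebbistatin replicate 3, and the groups overlapped. ATF7IP, which stabilises SETDB1 in the nucleus, was at 90.3, 64.3 and 45.3 CPM with DMSO and 44.9, 73.8 and 56.5 CPM with blebbistatin. Its level spread by a factor of 2.24 over the libraries with no separation of the groups (-0.20 ± 0.31 with all libraries and 0.090 without DMSO replicate 1). The ratio of ATF7IP to SETDB1 ran from 0.766 in blebbistatin replicate 1 to 1.31 in DMSO replicate 1.

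MPHOSPH8 and PPHLN1 encode subunits of the human silencing hub (HUSH) complex, and MORC2 is the ATPase that works with it. MPHOSPH8 was at 56.8, 74.8 and 79.9 CPM with DMSO and 80.3, 72.3 and 64.9 CPM with blebbistatin, lowest in DMSO replicate 1 (0.0077 ± 0.14, and -0.093 without DMSO replicate 1). PPHLN1 lay between 47.97 and 59.97 CPM (0.035 ± 0.13, and 0.043 without DMSO replicate 1), and MORC2 between 52.5 and 72.5 CPM, with both ends in controls (-0.13 ± 0.18, and 0.020 without DMSO replicate 1). WIZ, a zinc finger partner of the Ehmt enzymes, was highest in DMSO replicate 1 at 74.7 CPM and ran from 48.98 to 63.1 CPM in the others (-0.18 ± 0.21, and 0.023 without DMSO replicate 1). CHD4, the remodelling ATPase of the NuRD complex, was at 639, 439 and 377 CPM with DMSO and 380.0, 443 and 446 CPM with blebbistatin. Its DMSO replicate 1 differed by 0.76 on the log2 scale from the mean of 5 libraries that lay within a factor of 1.202 of each other after scaling, and the fold change went from -0.21 ± 0.24 to 0.057 without it.

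DAXX and ATRX form the chaperone that deposits histone H3.3 at heterochromatin. DAXX had the largest positive value of the set. It was at 23.8, 28.1 and 24.96 CPM with DMSO and 28.2, 32.6 and 34.1 CPM with blebbistatin, or 25.97 ± 1.71 CPM with DMSO and 31.2 ± 3.32 CPM with blebbistatin after scaling (SD, n = 3 each). In CPM as deposited the lowest treated library (28.17) lay just above the highest control (28.12), and after scaling the groups overlapped. The log2 fold change was 0.26 ± 0.14 (interval -0.061 to 0.58, limma unadjusted p = 0.0975 and adjusted p = 0.990) and 0.26 without DMSO replicate 1. ATRX was at 94.2, 66.99 and 51.6 CPM with DMSO and 59.01, 81.9 and 54.9 CPM with blebbistatin, highest in DMSO replicate 1 and next in blebbistatin replicate 2 (-0.14 ± 0.28, and 0.13 without DMSO replicate 1). The ratio of ATRX to DAXX was accordingly 3.96 in DMSO replicate 1 and 1.61 to 2.51 elsewhere.

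HELLS and UHRF1 support the inheritance of DNA methylation in silent chromatin and are known to be raised in cycling cells. HELLS, a remodelling ATPase, was at 12.2, 1.89 and 11.6 CPM with DMSO and 10.4, 3.53 and 2.98 CPM with blebbistatin. DMSO replicates 1 and 3 and blebbistatin replicate 1 were high, and DMSO replicate 2 and blebbistatin replicates 2 and 3 were low, so each group held both levels. The highest scaled value was 7.06 times the lowest, and the spread within groups ranked at the 98.2 percentile of all genes tested. The log2 fold change of -0.47 ± 0.78 (interval -2.29 to 1.36) therefore leaves a wide range, and it was -1.35 without DMSO replicate 2 and 0.028 without DMSO replicate 1. UHRF1, which reads methylated H3K9 together with hemimethylated DNA, was at 49.9, 66.2 and 72.9 CPM with DMSO and 73.99, 64.3 and 76.3 CPM with blebbistatin, lowest in DMSO replicate 1 (0.15 ± 0.15, and 0.043 without DMSO replicate 1). The mean log2 level of 26 proliferation genes lay between 5.73 and 5.80 in the 6 libraries, but single genes lay on both sides of their average. MKI67, a marker of cycling cells, was at 439, 234 and 166 CPM with DMSO and 175, 242 and 203 CPM with blebbistatin, and CDK1, the mitotic kinase, at 32.2, 68.8 and 82.2 CPM with DMSO and 81.5, 62.2 and 71.4 CPM with blebbistatin. DMSO replicate 1 was the highest library for MKI67 and the lowest for CDK1, a pair chosen after their values were seen. A gene named Rpl35al10 overlaps HELLS in the RefSeq table, and its part in the level of HELLS was not tested.

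The start region of HELLS, of CBX3 and of UHRF1 is shown. HELLS was highest in DMSO replicate 1, whereas CBX3 and UHRF1 were both lowest in it. A link between the letters marked below and these levels was not tested. Each line runs 5′ to 3′ along the gene from 250 bases before to 50 after the RefSeq start in build GRCr8. Capitals mark the letters TTTCCCGC, TTTCGCGC, TTTGCCGC or TTTGGCGC on either strand, which E2F factors of the cell cycle are known to bind.
HELLS, chr1:246113879-246114178, + strand: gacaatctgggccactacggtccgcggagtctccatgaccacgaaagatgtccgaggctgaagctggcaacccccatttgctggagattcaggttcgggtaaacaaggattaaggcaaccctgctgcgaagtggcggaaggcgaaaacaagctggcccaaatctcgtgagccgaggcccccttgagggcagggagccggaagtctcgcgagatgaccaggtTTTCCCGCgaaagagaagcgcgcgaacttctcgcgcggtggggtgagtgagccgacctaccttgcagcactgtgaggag
CBX3, chr4:81876429-81876728, + strand: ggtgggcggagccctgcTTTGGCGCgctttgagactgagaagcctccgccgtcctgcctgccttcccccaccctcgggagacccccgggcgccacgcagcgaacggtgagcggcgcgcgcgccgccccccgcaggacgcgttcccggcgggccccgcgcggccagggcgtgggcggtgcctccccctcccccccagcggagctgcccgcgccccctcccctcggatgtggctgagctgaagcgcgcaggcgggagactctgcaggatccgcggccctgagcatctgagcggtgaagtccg
UHRF1, chr9:1221813-1222112, + strand: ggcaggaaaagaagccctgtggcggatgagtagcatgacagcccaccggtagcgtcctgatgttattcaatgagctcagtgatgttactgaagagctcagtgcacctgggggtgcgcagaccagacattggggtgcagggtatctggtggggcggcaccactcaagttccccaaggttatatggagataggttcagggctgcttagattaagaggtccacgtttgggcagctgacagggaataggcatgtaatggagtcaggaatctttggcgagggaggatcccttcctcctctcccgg
A match lay 29 bases before the start of HELLS and 233 before that of CBX3, and none of these letters was found in the window of UHRF1. Of 33 members with a promoter in the table, 3 (9.09%) held a match, beside 2.14% of all 33469 promoters of this length. KDM1A was the other, with its match after the start, at position 35. All promoters here were taken whether or not the gene was tested in these libraries. The shares thus do not compare like genes, and an excess was not tested. The letters GGAAAA, the core of sites bound by the NFAT factors in the series title, were found on either strand for 7 members (21.2%) and in 24.8% of all promoters. The members were ATF7IP, CHD4, HELLS, KDM3A, KDM4D, PRDM2 and UHRF1. In HELLS this core overlaps the E2F-type letters. A match describes letters only, and is not a measured binding site.

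**Figure D4:**
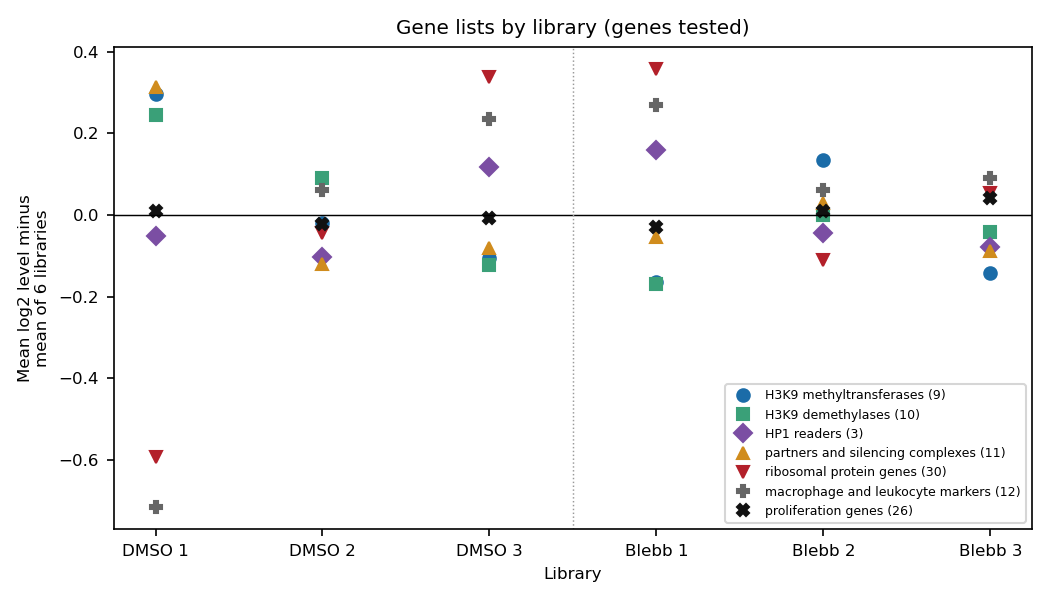
Mean log2 level of each gene list in each library minus the mean over the 6 libraries, with the number of genes tested in the legend. Methyltransferases, demethylases and partners are highest in DMSO replicate 1, where ribosomal protein genes and macrophage markers are lowest, and the mean of the proliferation genes stays near 0.

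By role, the mean log2 level of the methyltransferases was 5.07, 4.76 and 4.67 in the controls and 4.61, 4.91 and 4.63 in the treated libraries. That of the demethylases was 5.80, 5.64 and 5.43 in the controls and 5.39, 5.55 and 5.51 in the treated libraries. HP1 genes had means of 5.56, 5.50 and 5.72 in the controls and 5.77, 5.56 and 5.53 in the treated libraries. The libraries of both groups overlapped in all 3 roles, and blebbistatin replicate 2 had the highest treated mean for methyltransferases and demethylases. For ribosomal protein genes the means were 7.71, 8.25 and 8.64 in the controls and 8.66, 8.19 and 8.35 in the treated libraries. The libraries with the lowest ribosomal means, DMSO replicate 1 and blebbistatin replicate 2, thus held the highest methyltransferase means, and the part of the one in the other was not tested.

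Other genes of heterochromatin, from a list of further complex members and chaperones, gave the same counts of calls. Of 55 tested, limma called 0 in either direction and 0 were under an unadjusted p of 0.05. The median log2 fold change was -0.093 with 36 negative and 19 positive values, and 0.0031 without DMSO replicate 1. HR, the hairless gene of a Jumonji protein related to the Kdm3 enzymes, was at 9.08, 7.54 and 5.77 CPM with DMSO and 5.84, 4.40 and 5.25 CPM with blebbistatin. Its values overlapped at DMSO replicate 3 and blebbistatin replicate 1 (-0.55 ± 0.24, limma unadjusted p = 0.0561 and adjusted p = 0.990; -0.35 without DMSO replicate 1). PCGF6, a subunit of a polycomb complex that works with Ehmt enzymes, was at 6.50, 9.04 and 11.3 CPM with DMSO and 12.7, 12.1 and 11.9 CPM with blebbistatin. All 3 treated libraries lay above all controls for this gene (0.44 ± 0.19, adjusted p = 0.990; 0.28 without DMSO replicate 1). The only other gene of the list without overlap was MTA2 (NuRD), chosen after its values were seen, with 107, 104 and 106 CPM with DMSO and 101, 90.2 and 102 CPM with blebbistatin (-0.15 ± 0.12, and -0.097 without DMSO replicate 1). These 2 genes are 3.64% of the 55, below the 6.12% of all genes. ORC1, of the origin recognition complex, had a log2 fold change of 0.38 ± 0.18, and 0.28 without DMSO replicate 1. For CDYL2, a chromodomain protein, the values were -0.32 ± 0.23 and -0.089.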

How the data were processed

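Values are CPM made by the authors, as the sum of 1000000 in each deposited column shows, although the file's name speaks of counts. Build rn6, edgeR 3.20.9, HISAT2 2.1.0 and StringTie 1.3.4 stand among the programs in the submitters' processing notes, with no role given. Annotation, counting rule and strand are not given in the sources used here. Of values above 0, 99.1 to 99.2% were whole multiples of a step (within 0.02) and the rest were fractions of it, so whole reads were not taken as recovered and no count test was run. CPM were divided by unweighted TMM factors (trims 0.3 and 0.05; 0.923 to 1.03). Tests used limma 3.58.1 in R 4.3.3 (trend and robust) on log2(value + 0.1), which understates changes of low genes. Genes needed 0.162 CPM (10 reads at median depth) in 3 libraries, leaving 15204 of 19425 above 0. Tests are two-sided, and ± after a log2 fold change is the SE. No pair of libraries agreed within sampling noise (lowest chi-square per degree of freedom 35.4). An exact test of 3 against 3 libraries cannot go below p = 0.1. The limma step was tested on simulated reads with the same dispersion for every gene and no outlying library. The scaling and a library such as DMSO replicate 1 were thus not covered.

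Members and lists were chosen with earlier results of these data known. Every member is named, and library values are given for a set of core genes, for the 6 members with the lowest p and for KDM4D, with up to 4 genes per other list. Members with library values also include PHF8, ATF7IP, MPHOSPH8, CHD4, ATRX, HELLS and UHRF1, which are not among the 6 with the lowest p. Promoters are from RefSeq (GRCr8), a newer build, used for names, overlaps and sequence. Of the 34 names, 33 matched a symbol and 1 a synonym, and 33 had a promoter. There, 9 members overlap another protein-coding gene (SETDB1, SETDB2, JMJD1C, CBX5, TRIM28, MPHOSPH8, MORC2, UHRF1 and HELLS), so their values are uncertain where reads could be shared.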

Additional observations from a re-analysis of the deposited data

How the results depend on the processing

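Alternatives covered RLE or no scaling, pseudocounts of 0.5 and 1 CPM, no filter or at least 1 CPM, the replicate block and leaving out each library. Members called and other heterochromatin genes called stayed at 0 under all of them. Of 429 single-member values 395 kept their sign, 0 passed the threshold, and 34 changed sign. The 395 include the values under both filter settings and the replicate block. These settings leave each log2 fold change as it was, so no sign could change there. Of the 34 sign changes 32 came from leaving out 1 library (14 from DMSO replicate 1). The other 2 came from no scaling factor, with MECOM at 0.0179 and PHF2 at 0.0308, and that setting shifted the median of all genes by 0.042. It also left 1 member, DAXX (3.03%), with groups that do not overlap, beside 6.10% of all genes. With the replicate block 2 genes were called instead of 3. In this balanced layout the block alters the SE but not the log2 fold change, so it could not change a sign. Deviations of same-numbered libraries correlated at -0.29, 0.054 and -0.092, and DMSO replicate 3 correlated best with blebbistatin replicate 1 (0.38), so the numbers share no measured pairing.

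With 1 library left out at a time there were 3 to 6 genes called (6 without DMSO replicate 1 or 3). At an unadjusted p under 0.05 there was 0 to 1 member (HELLS without DMSO replicate 2, KDM7A without DMSO replicate 3). The share of all genes under that p is not given for these settings, so HELLS and KDM7A cannot be judged against it. Members with groups that do not overlap numbered 0 to 7 (7 without DMSO replicate 3, or 21.2% beside 22.6% of all genes). Over all genes the other settings of this kind gave 12.04 to 14.6%. The median of the members was -0.149 to 0.0203, above 0 without DMSO replicate 1 only. The members whose log2 fold change took both signs had these ranges: SUV39H1L1 -0.115 to 0.0139, SUV39H2 -0.128 to 0.391, SETDB1 -0.149 to 0.0655, EHMT2 -0.201 to 0.0171 and MECOM -0.147 to 0.128. They ran from -0.067 to 0.0912 for KDM1A, -0.21 to 0.073 for KDM4B, -0.115 to 0.00766 for KDM4C and -0.0767 to 0.0599 for PHF2. The HP1 genes gave -0.226 to 0.0302 for CBX1, -0.0489 to 0.225 for CBX3 and -0.0332 to 0.147 for CBX5. Partners gave -0.0323 to 0.136 for TRIM28, -0.483 to 0.0895 for ATF7IP, -0.0932 to 0.0857 for MPHOSPH8, -0.287 to 0.0203 for MORC2, -0.0581 to 0.114 for PPHLN1, -0.34 to 0.0234 for WIZ, -0.399 to 0.0568 for CHD4, -1.35 to 0.0275 for HELLS and -0.376 to 0.133 for ATRX. The cause was not tested. KDM4D entered without a filter only.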

Other observations

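Enzymes of other histone methylation sites, such as H3K4, H3K27 and H3K36, gave counts like those of the H3K9 genes. Of 36 tested, limma called 0 and 0 were under an unadjusted p of 0.05. Their median log2 fold change was -0.12 with 24 negative and 12 positive values, and 0.021 with 13 negative and 23 positive without DMSO replicate 1. KDM8, a Jumonji protein, had the lowest p, at 7.62, 12.1 and 14.5 CPM with DMSO and 14.1, 14.7 and 13.9 CPM with blebbistatin (0.32 ± 0.21, and 0.11 without DMSO replicate 1). RIOX1, a nucleolar Jumonji enzyme, was at 11.8, 13.6 and 14.7 CPM with DMSO and 15.3, 15.3 and 16.96 CPM with blebbistatin, with all treated libraries above all controls (0.21 ± 0.14, limma adjusted p = 0.990; 0.17 without DMSO replicate 1). This was the only such gene of the list, or 2.78% of it, beside 6.12% of all genes. KDM5C, a demethylase of H3K4, was highest in DMSO replicate 1 (182 CPM) and had a log2 fold change of -0.28 ± 0.18, which became -0.082 without that library. EED, a polycomb subunit, was lowest in it (15.3 CPM) and had one of 0.24 ± 0.17, which became 0.086 without it.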
